A study of Mus musculus with 24 samples.

Results

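The mouse zinc finger genes named Zfp800 to Zfp999 were followed in cultured organs of Corti (OC), the sensory epithelium of the cochlea that carries the hair cells (HCs). The members were all rows of the count table whose Entrez identifier carried a mouse symbol of Zfp followed by 8 or 9 and 2 further digits. They numbered 80 of 24454 genes, and 278 other genes with a Zfp number served as the nearest comparison. The set was chosen by symbol from a series whose earlier results were known, among them Zfp811 in the pioglitazone libraries at 6 h and the trend with GC content in the combined treatment at 6 h. Values from those 6 h comparisons are therefore given as descriptions, whereas the 24 h libraries are other samples.

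OC explants came from C57BL/6N mouse pups of both sexes on postnatal day P5 and were kept in medium for 24 h before the drugs. Culture then went on for 6 or 24 h in 4 ways. The CTRL explants received no drug. The GM explants received gentamicin at 50 μM, an aminoglycoside that is toxic to HCs, and the PIO explants received pioglitazone at 10 μM, which activates the nuclear receptor PPAR-γ. The PIO+GM explants received both at these doses. Each of the 8 groups had 3 libraries of total RNA, and each library pooled 6 OCs, so that an explant with its nerve fibres, glia and mesenchyme was measured as a whole. In such bulk samples, fewer cells of a type and less RNA per cell cannot be told apart. Nothing in the sources ties a library to a litter, and p-values measure the spread between these pools.

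Proteins of this family bind DNA through rows of C2H2 zinc fingers, loops of the chain that a cysteine pair and a histidine pair fold around a zinc ion. Many members also carry a KRAB box, which recruits the corepressor TRIM28. TRIM28 in turn brings the histone methyltransferase SETDB1, HP1 proteins and the NuRD complex of deacetylases and CHD remodellers, and this machinery is best known for silencing endogenous retroviruses. The genes are young, lie in clusters of near copies and have transcripts rich in A and T.

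The members shared this build. In the translated reference transcripts, 76 of 80 members had at least 1 C2H2 finger and the median was 11 fingers, with a highest count of 22 in Zfp808. The KRAB pattern was found in 65 members and not in 15, among them Zfp800, Zfp827, Zfp830 and Zfp839. The members lay on 14 chromosomes, 17 of them on chromosome 17, and 49 belonged to 8 clusters with at least 3 members each. The largest cluster held 11 members at chr17:21565816-22867309 (GRCm38), and another held Zfp866, Zfp868, Zfp869, Zfp930, Zfp963 and Zfp964 at chr8:69209018-69774911.

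Of 5 members that the results return to, 1 finger each is shown to let the shared plan of the family be seen. Each line holds 78 bases of GENCODE coding sequence (GRCm38), 5′ to 3′, that encode 1 finger and the linker to the next. Capitals mark the codons of the 2 cysteines and the 2 histidines that hold the zinc.
Zfp963 (chr8:69743001-69743078, minus strand): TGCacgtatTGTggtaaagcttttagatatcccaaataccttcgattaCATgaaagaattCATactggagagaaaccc
Zfp866 (chr8:69766402-69766479, minus strand): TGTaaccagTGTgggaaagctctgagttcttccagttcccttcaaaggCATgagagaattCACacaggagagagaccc
Zfp964 (chr8:69663490-69663567, plus strand): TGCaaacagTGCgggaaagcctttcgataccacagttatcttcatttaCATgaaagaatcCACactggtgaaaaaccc
Zfp811 (chr17:32798321-32798398, minus strand): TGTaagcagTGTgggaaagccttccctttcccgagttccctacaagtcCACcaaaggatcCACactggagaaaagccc
Zfp871 (chr17:32775456-32775533, minus strand): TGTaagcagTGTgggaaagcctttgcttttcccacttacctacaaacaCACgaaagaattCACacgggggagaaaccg
Between any pair of these 5 fingers, 51 to 61 of 78 bases were the same. The closest pair was Zfp811 and Zfp871, which are neighbours on chromosome 17. Over whole transcripts, 23 of 80 members shared no stretch of 76 bases, the read length, with any other gene, whereas 25 shared over 10% of such windows and 7 shared over 50%. Zfp811 and Zfp871 shared 0%, Zfp964 1.34%, Zfp866 10.9% and Zfp963 39.1%, the latter 2 with the gene model Gm20422, which has no row in the count table. The authors mapped with STAR at its default settings. How reads that fit several places entered the counting is not given in the sources used here. The counts of Zfp963 and Zfp866 are uncertain to that extent. So are those of the members with more shared windows, such as Zfp965 and Zfp967 (100% each). Zfp966 and Zfp967 had identical counts in all 24 libraries, 442 to 736, and 1 set of reads therefore stands as 2 of the members.

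The promoters of the members also had a feature in common. RefSeq promoter windows (GRCm38.p6) of 300 bases, from 250 before to 50 after the start, were at hand for 72 members. The box CCAAT, on either strand, stood in the windows of 54 of 72 members (75.0%), against 101 of 225 other Zfp genes (44.9%) and 11096 of 27025 genes in all (41.1%). The box was looked for after some of these windows had been read, so its share is a description. The half-site AGGTCA, the letters that PPAR-γ and other nuclear receptors read, stood in 9 of 72 members (12.5%) and in 18.1% of all genes. A pair of half-sites with 1 base between them occurred in 0 of 72 members and in 0.0481% of all genes, which says only that these letters are not in these windows.
The windows of 3 members on which the pioglitazone results turn are shown 5′ to 3′ on the strand of the gene, with each CCAAT or its complement ATTGG in capitals.
Zfp963 (chr8:69749913-69750212): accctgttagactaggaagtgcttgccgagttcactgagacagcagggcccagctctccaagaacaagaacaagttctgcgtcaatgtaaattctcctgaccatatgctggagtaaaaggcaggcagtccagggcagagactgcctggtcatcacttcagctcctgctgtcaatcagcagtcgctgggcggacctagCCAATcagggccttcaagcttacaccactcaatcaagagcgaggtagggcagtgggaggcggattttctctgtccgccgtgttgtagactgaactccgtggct
Zfp866 (chr8:69774862-69775161): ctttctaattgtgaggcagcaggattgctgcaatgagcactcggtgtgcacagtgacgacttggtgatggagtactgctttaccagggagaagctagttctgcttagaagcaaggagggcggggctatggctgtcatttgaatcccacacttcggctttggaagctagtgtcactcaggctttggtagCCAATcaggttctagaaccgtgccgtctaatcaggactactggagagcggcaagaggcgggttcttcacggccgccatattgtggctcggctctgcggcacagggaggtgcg
Zfp811 (chr17:32809882-32810181): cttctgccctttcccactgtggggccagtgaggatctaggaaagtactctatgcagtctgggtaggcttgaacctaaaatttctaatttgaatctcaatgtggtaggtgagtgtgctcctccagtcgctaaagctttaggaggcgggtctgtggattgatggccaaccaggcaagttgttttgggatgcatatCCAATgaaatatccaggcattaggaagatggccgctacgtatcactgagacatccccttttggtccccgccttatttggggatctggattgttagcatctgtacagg

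Library totals ran from 7211357 to 15548856 reads in exons, with a median of 12538495. At this depth 77 of 80 members passed the filter on low counts, and 16317 genes were tested in all. The 3 members left out, Zfp957, Zfp872 and Zfp987, had between 0 and 11 counts in each library. All 10 HC markers, such as Myo7a and Pou4f3, and all 11 supporting cell markers, such as Sox2, had counts in each group. From 6 to 24 h, 5 of 7 Schwann cell, 7 of 8 neuron and 5 of 5 erythroid markers were called lower and none higher, whereas 7 of 10 macrophage, 5 of 7 mesenchyme and 4 of 11 supporting cell markers were called higher and none lower. HC markers split, with 4 of 10 called higher and 2 lower. In this comparison 62.6% of all genes were called. The summed Schwann cell markers ranged from 337 to 2767 CPM at 6 h and from 243 to 872 CPM at 24 h.

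Most members were expressed at a moderate level. Per kilobase of gene, the median RPKM over the 24 libraries ranged from 0.0571 to 31.0 among the 77 members, with a median of 6.84, against 8.53 over all tested genes. The highest levels were those of Zfp871 (31.0 RPKM), Zfp866 (18.5), Zfp869 (15.1), Zfp950 (13.9) and Zfp935 (13.6), all with a KRAB pattern. The GC content of the longest transcript had a median of 40.0% in the members, with an interquartile range of 37.3 to 43.6%. The median was 46.2% in the 268 other Zfp genes tested and 49.7% over all tested genes, so that the median member lay at the 5.95th percentile.

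The members' summed level spread most within PIO and PIO+GM at 6 h. The summed level was 1832 to 2285 CPM (counts per 1e6 reads, scaled by TMM) in 9 of the 12 libraries at 6 h and 2113 to 2561 CPM in the 12 libraries at 24 h. There the ranges were 2208 to 2330 CPM in CTRL, 2113 to 2317 in GM, 2254 to 2419 in PIO and 2334 to 2561 in PIO+GM, the last of which lay above CTRL and GM. In PIO replicate 2, PIO+GM replicate 2 and PIO+GM replicate 3 at 6 h it was 3113, 2773 and 3156 CPM. These 3 libraries stood apart from the other 21 by GC content as a whole, and 2 of them are most of the PIO+GM group at 6 h. Across 16065 genes other than the members, the Spearman rho between a gene's deviation from its mean and its GC content was -0.56, -0.47 and -0.66 there, and between -0.09 and 0.38 in the other 21 libraries. PIO replicate 2 and PIO+GM replicate 3 also had the smallest totals, 9568348 and 7211357, and the highest summed level of nose receptor genes (Olfr and Vmn families, which have no known use in this tissue), 209 and 268 CPM against 38.5 to 160 CPM elsewhere. The part of depth and RNA quality in the values of these libraries was not tested, and the 6 h results on which the text turns are given with and without them.

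**Figure D1:**
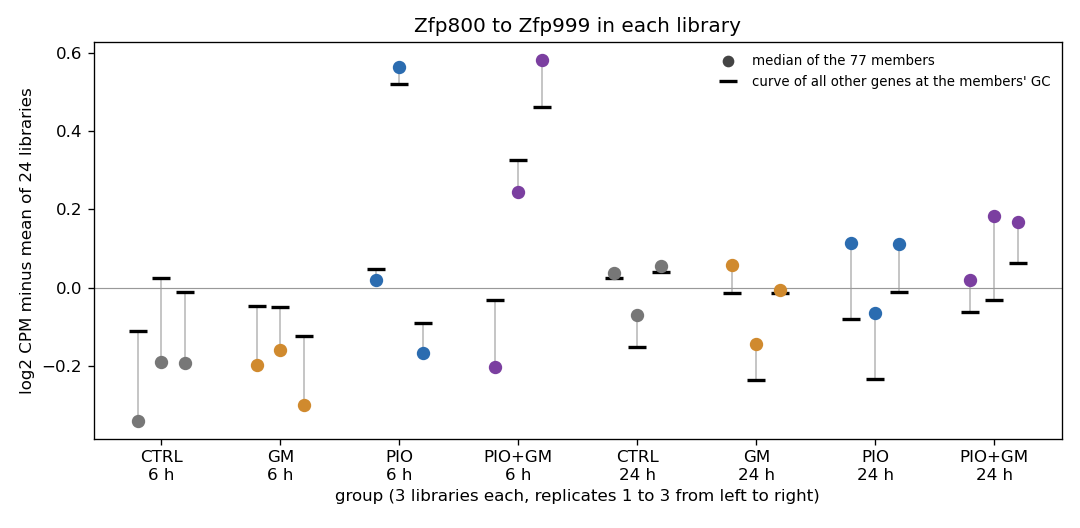
Median log2 CPM of the 77 tested members in each library, as its deviation from each gene's mean over the 24 libraries (points, coloured by treatment), beside the curve of all other genes at the members' GC content (bars). PIO replicate 2 and PIO+GM replicate 3 at 6 h had medians of 0.56 and 0.58, where the curve of other genes stood at 0.52 and 0.46.

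How far the members went with other genes of their GC content differed between libraries. The curve of other genes stood at over 50% of the members' deviation, with the same sign, in 11 of 24 libraries and had the opposite sign in 6. In the 3 libraries that stood apart, the members' median deviated from each gene's mean by 0.56, 0.24 and 0.58 on the log2 scale and the curve of other genes at the same GC by 0.52, 0.33 and 0.46. What remained above the curve was -0.23 to -0.19 in CTRL, -0.18 to -0.09 in GM, -0.07 to 0.07 in PIO and -0.17 to 0.16 in PIO+GM at 6 h. At 24 h it was 0.00 to 0.07 in CTRL, 0.01 to 0.07 in GM, 0.13 to 0.15 in PIO and 0.07 to 0.21 in PIO+GM. The 3 PIO libraries at 24 h thus lay above all CTRL libraries of that time on this measure, and those of PIO+GM overlapped them.

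Gentamicin alone left the members without a call, which is an adjusted p under 0.05 by edgeR's quasi-likelihood test over all 16317 genes. For GM against CTRL, 0 of 77 members passed at 6 h and 0 at 24 h, where 0.0% and 0.0123% of all genes did. At an unadjusted p under 0.05 it was again 0 members at either time, against 1.49% and 1.67% of all genes, and DESeq2 also called 0 members. The median log2 fold change of the members was 0.02 at 6 h and -0.05 at 24 h. The smallest p in each direction belonged to Zfp811 (log2 fold change 0.54, SE 0.27) and Zfp869 (-0.13, SE 0.16) at 6 h, and to Zfp964 (0.23, SE 0.19) and Zfp931 (-0.26, SE 0.21) at 24 h.

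Pioglitazone alone at 6 h came with higher counts of most members. The log2 fold change against CTRL was positive for 73 of 77 members, with a median of 0.42, against 0.18 for the 268 other Zfp genes. Calls numbered 2 of 77 members, Zfp963 and Zfp811, where 0.337% of all genes were called. Just outside the threshold lay Zfp964, with a log2 fold change of 0.79 (SE 0.20) and an adjusted p of 0.0793 by edgeR, and just inside lay Zfp811 and Zfp963, both at 0.0461. At an unadjusted p under 0.05, 33 members stood out, 32 of them higher, against 15.2% of all genes. Since this comparison was in view when the genes were chosen, nothing is read from these shares. The member lowest in PIO by p was Zfp827, whose human counterpart recruits NuRD to telomeres, with a log2 fold change of -0.37 (SE 0.13, adjusted p = 0.181 by edgeR).

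Genes of like GC content moved part of this way. For PIO against CTRL at 6 h the log2 fold change fell with GC over the 16065 other genes (Spearman rho -0.37, a description, since genes of 1 library are not replicates). At the members' own GC the curve stood at 0.21, and 67 of 77 members lay above it. The 2698 genes outside the family with a GC content of 37.3 to 43.6% had a median log2 fold change of 0.19. Without PIO replicate 2 the members' median was 0.17, and Zfp963 and Zfp811 were then 0.61 and 1.20. With all 3 libraries that stood apart left out, both were called in this comparison (adjusted p = 0.0369 and 0.0256 by edgeR), where 1.07% of all genes were. Neither call held throughout when 1 library was left out, because Zfp811 lost it without any 1 of the 6 libraries (adjusted p = 0.0576 to 0.142 by edgeR) and Zfp963 without any of them but PIO replicate 3 (adjusted p = 0.0829 to 0.165 by edgeR).

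In the combined treatment at 6 h, the members were higher in the 2 libraries that stood apart than in replicate 1. For PIO+GM against GM, 71 of 77 members had a positive log2 fold change and the median was 0.50, against 0.26 in the other Zfp genes. Calls numbered 2 members, Zfp963 (0.58, SE 0.13, adjusted p = 0.0357 by edgeR) and Zfp871 (0.53, SE 0.12, adjusted p = 0.0411 by edgeR), where 1.32% of all genes were called. Zfp934 lay just outside, with an adjusted p of 0.0542 by edgeR. At an unadjusted p under 0.05, 52 members stood out against 25.0% of all genes. The rho between log2 fold change and GC was -0.61 over other genes, the curve stood at 0.34 at the members' GC, and 66 of 77 members lay above it. Without the 3 libraries that stood apart, which leaves 1 PIO+GM library, the members' median was -0.00 and 39 of 79 members had a positive value. Zfp963 was then 0.48. Since these libraries were set apart by higher counts of genes low in GC, as the members are, a lower median without them was bound to follow. The 1 PIO+GM library left cannot show where the rise belongs. Without PIO+GM replicate 1 instead, the median was 0.66 and 52 of 79 members were called, where 24.4% of all genes were, and without any other single library of the comparison 0 were called. With all libraries in, the count was 18 members with the replicate number as a block and 17 with DESeq2, where 12.2% and 5.28% of all genes were called. The count of calls in this comparison therefore rests on the libraries kept and on the model.

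**Figure D2:**
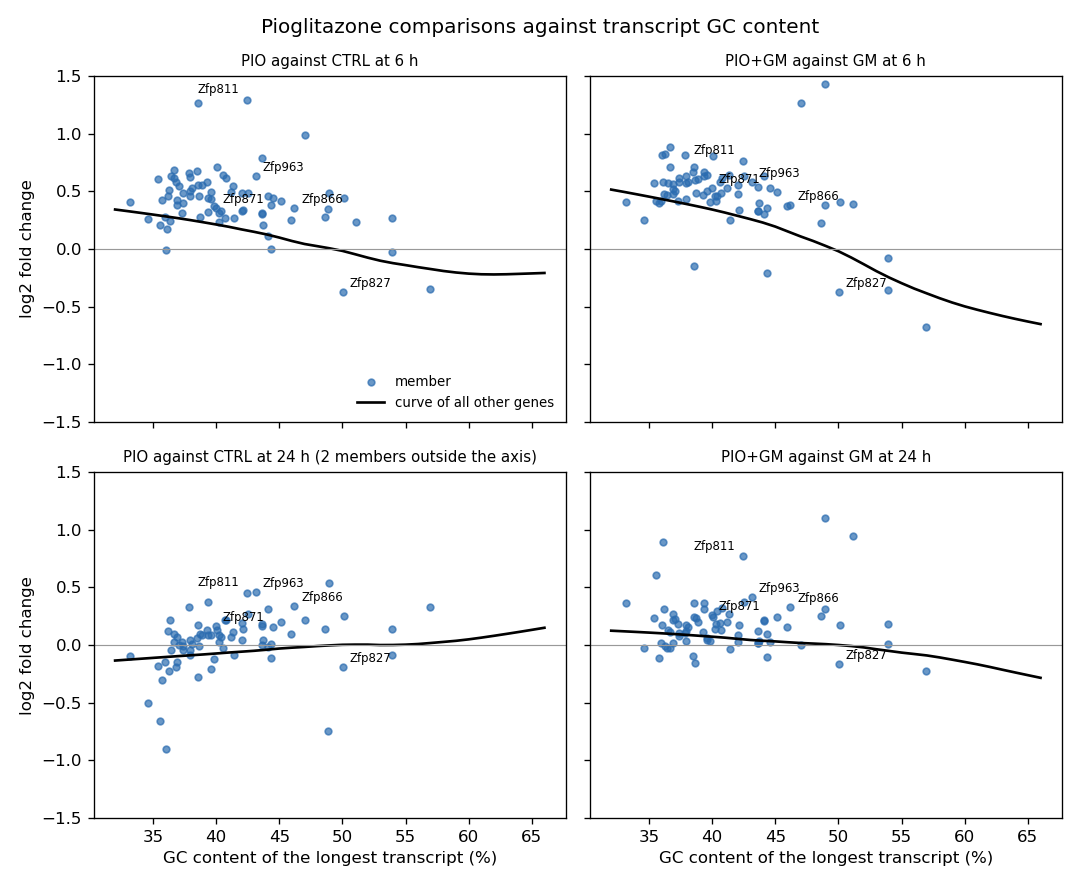
Log2 fold change of each tested member (points) against the GC content of its longest transcript, in the 4 comparisons with pioglitazone, with the lowess curve of all other tested genes (line). At 6 h the curve falls with GC and most members lie above it. At 24 h the curve rises with GC for PIO against CTRL and falls for PIO+GM against GM, and 5 members, Zfp800, Zfp811, Zfp866, Zfp879 and Zfp963, stand above 0.3 in both comparisons.

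At 24 h, in libraries that the choice of genes did not use, no member passed the threshold in the main edgeR fit. That fit has neither a replicate block nor a GC correction, and some other fits called Zfp866. For PIO against CTRL, 0 of 77 members were called, where 0.153% of all genes were, and 6 members had an unadjusted p under 0.05, against 9.93% of all genes. The median log2 fold change was 0.06, and 47 of 77 values were positive. For PIO+GM against GM, 0 of 77 were called, where 0.11% of all genes were, 6 had an unadjusted p under 0.05, against 7.47%, and 66 of 77 values were positive with a median of 0.17. When 1 library was left out, the first median ran from 0.02 to 0.09 and the second from 0.11 to 0.22. The trend with GC over other genes turned round in the first, with a rho of 0.13 and a curve at -0.07 at the members' GC, above which 58 of 77 members lay. In the second the rho was -0.23, the curve stood at 0.07 and 53 of 77 members lay above it. DESeq2 and edgeR with the replicate number as a block (adjusted p = 0.0492) each called 1 member, Zfp866, in the first of these comparisons, where they called 0.669% and 1.48% of all genes, and 0 in the second. Groups did not overlap, with all drug libraries higher, for 15 of 77 members in the first and 13 in the second, where 11.7% and 9.84% of all genes did the same. With all drug libraries lower, it was 2 of 77 and 0 of 77 members, against 10.6% and 8.57% of all genes. The 6 members by unadjusted p were Zfp963, Zfp866, Zfp879 and Zfp800, higher, and Zfp980 and Zfp831, lower, in the first, and Zfp866, Zfp963, Zfp811, Zfp871, Zfp952 and Zfp800, all higher, in the second. The lower ones rest on few reads, since Zfp980 had 3, 0 and 3 counts in PIO against 14, 3 and 19 in CTRL, and Zfp831 had 0, 0 and 1 against 6, 1 and 8. The member with the smallest p on the lower side of PIO+GM against GM was Zfp827 (-0.16, SE 0.13).

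Zfp963, a KRAB zinc finger gene with 7 fingers and no role known for certain, had the smallest p of the members in 3 of the 4 comparisons with pioglitazone. At 6 h it had 14.0, 14.3 and 12.9 CPM in CTRL and 14.1, 15.8 and 14.2 CPM in GM. With the drug the values were 24.2, 22.0 and 17.6 CPM in PIO and 20.7, 20.0 and 25.5 CPM in PIO+GM. At 24 h it had 16.1, 16.6 and 16.3 CPM in CTRL, 16.7, 17.4 and 18.2 CPM in GM, 21.2, 25.2 and 20.8 CPM in PIO and 23.0, 24.2 and 22.5 CPM in PIO+GM. In all 4 comparisons, each pioglitazone library was above each library without it, also at 24 h and also in those that did not stand apart. Zfp963 was named by its p in these comparisons, so this is a description. All drug libraries were higher for 8.68% and 11.6% of all genes at 6 h, and for 27 and 20 of 77 members. At 24 h the shares of all genes were 11.7% and 9.84%. They also stand beside the separations of Zfp866, Zfp811 and Zfp871 below. The log2 fold change of Zfp963 at 24 h was 0.46 (SE 0.13, adjusted p = 0.175 by edgeR) against CTRL and 0.42 (SE 0.13, adjusted p = 0.325 by edgeR) against GM. The curve of other genes at its GC stood at -0.05 and 0.04.

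Zfp866, its neighbour on chromosome 8 with 12 fingers and a KRAB pattern, had the same pattern at a higher level. Both genes share read-length windows with Gm20422, so their counts are not shown to be independent. At 6 h Zfp866 ranged from 95.7 to 102 CPM in CTRL, 86.9 to 104 in GM, 115 to 136 in PIO and 105 to 133 in PIO+GM. At 24 h the ranges were 101 to 107, 99.6 to 107, 127 to 140 and 126 to 136 CPM. The pioglitazone libraries were above the others in each comparison, and PIO+GM replicate 1 at 6 h, with 105 CPM against 104 in GM replicate 2, was the closest. The log2 fold change at 24 h was 0.34 (SE 0.10, adjusted p = 0.182 by edgeR) against CTRL and 0.33 (SE 0.10, adjusted p = 0.301 by edgeR) against GM. After removal of the GC trend, the first was 0.37 with an adjusted p of 0.0293 by edgeR.

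The other members of that cluster did not share the pattern throughout. Zfp964, another neighbour, had 3.86, 3.88 and 4.87 CPM in CTRL and 6.67, 9.00 and 6.22 CPM in PIO at 6 h. At 24 h its values in CTRL, 7.91, 7.73 and 7.68 CPM, overlapped those in PIO, 9.32, 9.37 and 7.80 CPM, with a log2 fold change of 0.18. Against GM at 24 h its log2 fold change in PIO+GM was 0.02. Over the 6 members of the cluster the median log2 fold change was 0.44 and 0.12 for PIO at 6 and 24 h, and 0.47 and 0.10 for PIO+GM against GM. Those medians were 0.42, 0.06, 0.50 and 0.17 over all 77 members.

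Zfp811, with 13 fingers and a KRAB pattern on chromosome 17, had the highest fold change of the members for PIO against CTRL at 6 h and rose with time as well. It had 3.38, 3.62 and 3.35 CPM in CTRL and 6.31, 3.45 and 5.31 CPM in GM at 6 h, and 7.11, 9.53 and 8.76 CPM in PIO, 2.45-fold the CTRL level by the fit. PIO+GM gave 5.08, 7.87 and 12.97 CPM, a range that overlapped GM. At 24 h it had 10.3, 12.8 and 10.4 CPM in CTRL, 11.0, 9.86 and 10.3 CPM in GM, 13.7, 17.4 and 14.7 CPM in PIO and 14.0, 21.3 and 18.0 CPM in PIO+GM. There, all pioglitazone libraries were above those without it, with a log2 fold change of 0.45 (SE 0.25, adjusted p = 0.579 by edgeR) against CTRL and 0.77 (SE 0.25, adjusted p = 0.385 by edgeR) against GM. In PIO+GM against GM at 6 h it was 0.76, and 0.01 without the libraries that stood apart.

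Zfp871, the most abundant member, ranged from 285 to 325 CPM in CTRL and 282 to 318 in GM at 6 h. PIO gave 362, 471 and 348 CPM and PIO+GM gave 343, 481 and 472 CPM, the highest values being those of the 3 libraries that stood apart. Without these, its log2 fold change at 6 h was 0.21 (adjusted p = 0.211 by edgeR) for PIO against CTRL. For PIO+GM against GM, with 1 library of PIO+GM left, it was 0.19. At 24 h it ranged from 307 to 330 CPM in CTRL, 285 to 320 in GM, 343 to 374 in PIO and 354 to 378 in PIO+GM, without overlap. Its log2 fold change at 24 h was 0.16 against CTRL and 0.26 (SE 0.12, adjusted p = 0.662 by edgeR) against GM.

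**Figure D3:**
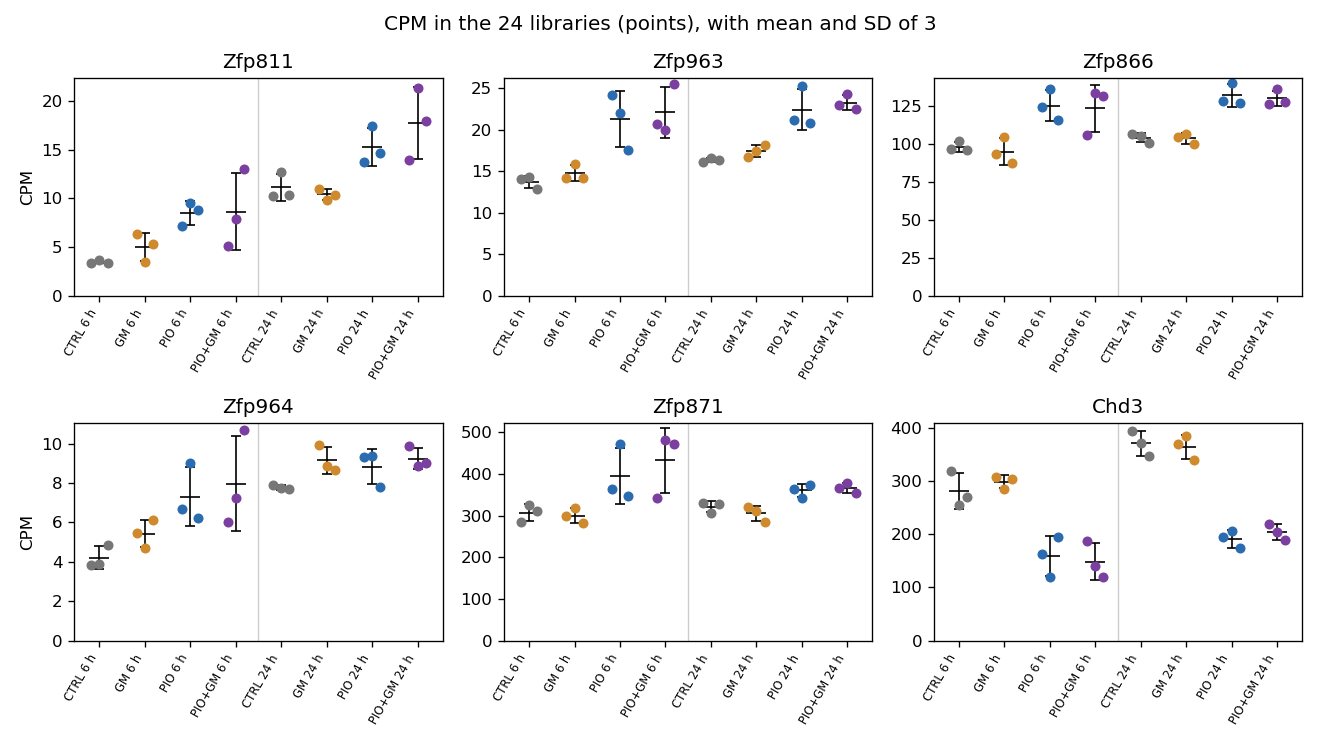
CPM of 5 members and of Chd3, a NuRD remodeller that is no member, in the 24 libraries (points), with the mean and SD of the 3 libraries of each group (bars). Zfp963 and Zfp866 are higher in PIO and PIO+GM than in CTRL and GM at both times, Zfp811 has its lowest mean in CTRL at 6 h, and Chd3 is lower in all pioglitazone libraries than in all others.

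The effect of pioglitazone on the members was not shown to differ between the times or, at 6 h, by gentamicin. The interaction of PIO with time called 0 of 77 members, where 0.0% of all genes were called, with 8 members at an unadjusted p under 0.05 against 4.38% of all genes. For PIO+GM against GM with time it called 0, with 3 at an unadjusted p under 0.05 against 4.06%. All 8 and all 3 had the smaller log2 fold change at 24 h, and both tests hold the 6 h values that were in view when the genes were chosen. The interaction of GM with time called 0, with 0 at an unadjusted p under 0.05 against 0.766%, and that of PIO with GM at 6 h called 0, with 1 against 1.8%. DESeq2 likewise called 0 members in each of these 4 tests. Over the 4 comparisons with pioglitazone, 41 of 77 members had a positive log2 fold change in all 4 and 1 in none, and 2 of these 4 comparisons were in view when the genes were chosen.

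Grouped by protein and sequence features, the members' medians at 6 h are a description, since 73 of 77 values for PIO against CTRL are positive and a median above 0 in each group was bound to follow. In PIO against CTRL at 6 h, the median log2 fold change was 0.44 in the 63 tested members with a KRAB pattern and 0.27 in the 14 without. Their median GC was 39.6% and 46.5%. In PIO+GM against GM at 6 h the medians were 0.53 and 0.37. At 24 h they were 0.05 and 0.10 for PIO against CTRL, the other way round, and 0.18 and 0.12 for PIO+GM against GM. By the number of fingers, the medians for PIO at 6 h were 0.41 with up to 9 fingers, 0.38 with 10 to 12 and 0.49 above 12. The 53 members with at most 10% shared windows had a median of 0.41 and the 24 others 0.53. Among the clusters, the lowest median in that comparison was 0.26, on chromosome 4, and the highest 0.59, on chromosome 7. Without the 3 libraries that stood apart, the medians for PIO at 6 h were 0.21 with and 0.07 without a KRAB pattern, 0.14, 0.17 and 0.23 in the order of the finger groups, 0.16 and 0.17 by shared windows, and 0.08 to 0.38 over the clusters. For PIO+GM against GM at 6 h they were 0.03 and -0.10 by KRAB pattern and -0.16 to 0.21 over the clusters.

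Between the times, with all libraries in, 49.4% of the members were called, a smaller share than among all genes. For 24 h against 6 h, averaged over the 4 treatments, which sets 12 libraries against 12 where a drug comparison sets 3 against 3, 38 of 77 members were called, 25 higher and 13 lower, where 62.6% of all genes were. Among the other Zfp genes 145 of 268 were called. The median log2 fold change of the members was 0.02, and 0.19 without the 3 libraries that stood apart. These are 6 h libraries high in the members, so a shift toward higher values without them was bound to follow. In the fit without them the split was 42 higher and 6 lower of 79. With the GC trend removed it was 39 higher and 13 lower of 77. All genes were called at 60.9% and 65.8% in these fits and the members at 60.8% and 67.5%, so the smaller share does not hold there. The part of the cell markers that differed between the times in these values was not tested.

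Members with higher counts at 24 h were led by Zfp983, a KRAB gene of the large chromosome 17 cluster. It ranged from 9.88 to 19.5 CPM at 6 h and from 17.0 to 23.8 CPM at 24 h, and rose by a log2 fold change of 0.73 (SE 0.07, adjusted p = 7.0e-08 by edgeR). Only PIO+GM replicate 3, with 19.5 CPM at 6 h, reached into the range of 24 h. Zfp811 rose by 1.16 (SE 0.13, adjusted p = 3.2e-07 by edgeR), Zfp839, which has no finger by the pattern used, by 0.49 (SE 0.06) and Zfp950, with 17 fingers, by 0.66 (SE 0.09). For Zfp950 the CTRL libraries had 87.2, 74.3 and 98.9 CPM at 6 h and 198, 166 and 202 CPM at 24 h. Zfp808 (0.91), Zfp810 (0.62) and Zfp934 (0.62) followed.

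Members with lower counts at 24 h included Zfp800, which is required in the endocrine pancreas and has no KRAB pattern. It had 49.6, 66.7 and 53.4 CPM in CTRL at 6 h and 35.8, 36.5 and 38.3 CPM in CTRL at 24 h, and fell by 0.60 on the log2 scale (SE 0.09, adjusted p = 7.8e-06 by edgeR). Zfp948 fell by 0.73 (SE 0.12, adjusted p = 2.5e-05 by edgeR), Zfp850 by 0.57 (SE 0.13) and Zfp985, with 4 to 39 counts in a library, by 1.15 (SE 0.34). Without the 3 libraries that stood apart, 5 of the 13 lower members were also called. The log2 fold change was then over 1.5 times smaller in size for 7 of the 13. All 25 higher members were called in both fits. Since those 3 are 6 h libraries high in the members, falls tend to shrink without them and rises to grow. The counts therefore do not show which direction is the firmer. Without the 3 libraries, Zfp800, Zfp948 and Zfp850 were -0.44, -0.59 and -0.32, all called. Zfp985 was not called (-0.79, adjusted p = 0.0796 by edgeR). With all libraries in, Zfp980, with an adjusted p of 0.0377 by edgeR, lay just inside the threshold, and Zfp867, at 0.0929, just outside.

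Of 4 members best known as silencers of retroviral elements, Zfp809 and Zfp819 fell with time when all libraries were in and the other two did not pass the test. Zfp809, which binds the primer site of murine leukaemia virus, fell by 0.30 (SE 0.09, adjusted p = 0.00674 by edgeR) from 6 to 24 h, and Zfp819, a partner of TRIM28 with 1 to 15 counts in a library, by 1.15 (SE 0.39, adjusted p = 0.0153 by edgeR). Without the 3 libraries that stood apart neither passed, with -0.16 (adjusted p = 0.0955 by edgeR) for Zfp809 and -0.68 (adjusted p = 0.188 by edgeR) for Zfp819. Zfp932 (-0.06, SE 0.11) and Zfp961 (0.11, SE 0.07) did not pass. Of 2 members with other roles, Zfp830, which acts in splicing and genome stability, fell by 0.22 (SE 0.07), and Zfp827 rose by 0.17 (SE 0.06), both called.

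**Figure D4:**
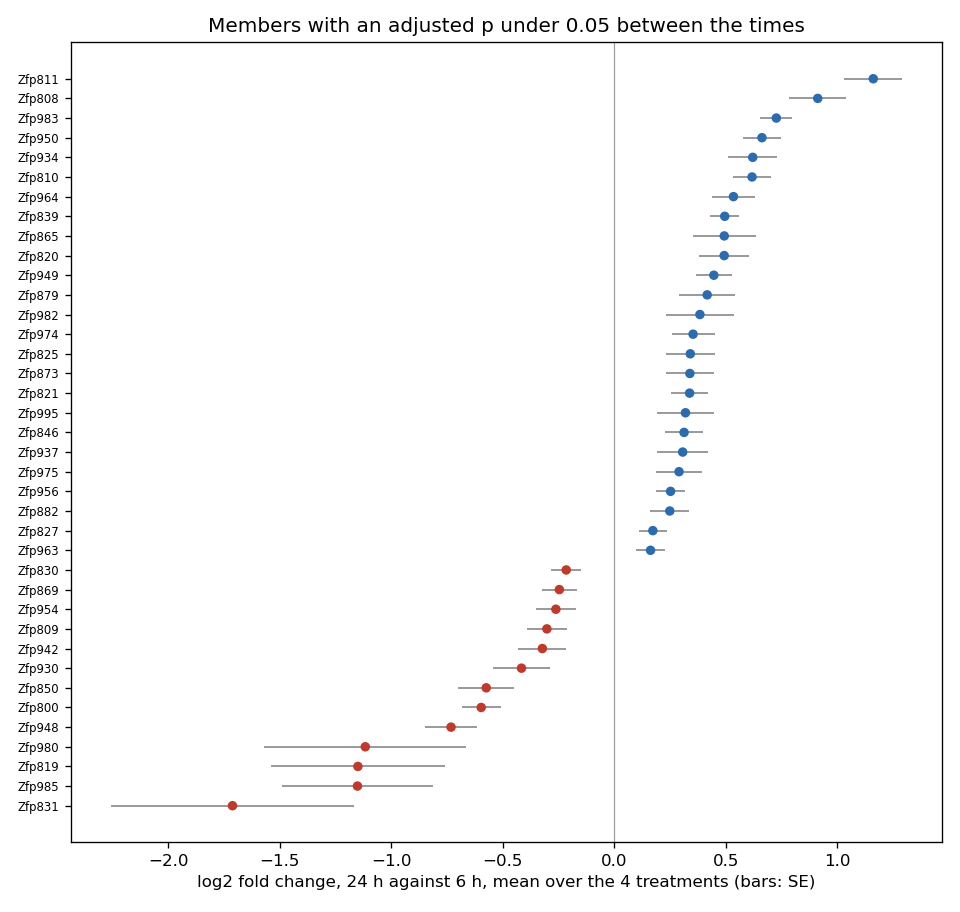
Log2 fold change of the 38 members called between 24 h and 6 h, averaged over the 4 treatments, with the SE of the fit (bars). The 25 higher members reach up to 1.16 (Zfp811) and the 13 lower ones down to -1.71 (Zfp831, with 0 to 12 counts in a library).

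Of the machinery that KRAB zinc finger proteins recruit, 1 gene was lower with pioglitazone at both times. The list held 24 genes, from Trim28 and Setdb1 to the HP1, NuRD, HUSH and DNA methyltransferase genes. In each of the 4 pioglitazone comparisons, 0 were called higher and 1 lower. Of all genes, 0.337% and 0.153% were called for PIO against CTRL at 6 and 24 h. For PIO+GM against GM it was 1.32% and 0.11%. The gene called was Chd3, an ATPase of NuRD, and its relative Chd4 was not called. Chd3 had 319, 254 and 270 CPM in CTRL and 308, 285 and 303 CPM in GM at 6 h, but 163, 120 and 194 CPM in PIO and 187, 140 and 119 CPM in PIO+GM. At 24 h it had 394, 371 and 346 CPM in CTRL, 368, 383 and 339 CPM in GM, 194, 207 and 173 CPM in PIO and 219, 203 and 188 CPM in PIO+GM. The groups with and without the drug did not overlap at either time. All drug libraries were lower for 6.73% and 10.6% of all genes in PIO against CTRL at 6 and 24 h. In PIO+GM against GM it was 11.4% and 8.57%. The log2 fold change of Chd3 was -0.82 (SE 0.16, adjusted p = 0.0342 by edgeR) and -0.95 (SE 0.16, adjusted p = 0.0170 by edgeR) for PIO against CTRL at 6 and 24 h. For PIO+GM against GM it was -1.01 (SE 0.16, adjusted p = 0.00721 by edgeR) and -0.84 (SE 0.16, adjusted p = 0.0397 by edgeR).

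Chd3 was also lower without the 3 libraries that stood apart. Its log2 fold change at 6 h was then -0.65 (adjusted p = 0.0224 by edgeR) for PIO against CTRL. For PIO+GM against GM, with 1 library of PIO+GM left, it was -0.68. Its transcript has a GC content of 56.1%, and with the GC trend removed the 4 values were -0.67, -0.96, -0.66 and -0.76. Leaving out each library in turn gave values between -1.22 and -0.65, all 24 below 0, though the adjusted p by edgeR was then under 0.05 in 7 of 24 fits. Without a count filter the adjusted p was 0.0563 for PIO against CTRL at 6 h and 0.0723 for PIO+GM against GM at 24 h by edgeR, and with only the 12 libraries of 6 h it was 0.387 and 0.210 for the 2 comparisons of that time. Its closest relative in the list, Chd4, and Trim28 were not called under any drug. Trim28 had a log2 fold change of -0.19 (SE 0.16) and 0.11 (SE 0.16) for PIO at 6 and 24 h, and of -0.33 (SE 0.16) and -0.02 (SE 0.16) for PIO+GM against GM.

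Between the times the machinery genes were called about as often as genes in general. From 6 to 24 h, 7 of 24 genes were called higher and 9 lower, with a median of -0.03, where 62.6% of all genes were called. The other 8 did not pass, among them Trim28 (-0.16, SE 0.08) and the HP1 genes Cbx1, Cbx3 and Cbx5. The largest rises were in Atf7ip, the partner of SETDB1 (0.80, SE 0.07), and Uhrf1, which reads methylated DNA (0.72, SE 0.17), and the largest decreases were in Hdac2 (-0.53, SE 0.09), Morc2a (-0.48, SE 0.05) and Dnmt3b (-0.48, SE 0.09). Chd3 itself rose by 0.35 (SE 0.08). Under GM alone, 0 of 24 genes were called at either time, with medians of -0.01 and -0.02.

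For other zinc finger families the 6 h values are set beside those of the members as a description, with no test of the difference. The 20 tested Zkscan and Zscan genes had a median log2 fold change of 0.23 for PIO against CTRL and of 0.21 for PIO+GM against GM at 6 h, with 0 and 1 genes called. The 41 tested Zbtb genes had medians of 0.03 and 0.00, with 0 and 1 called. The members' medians, 0.42 and 0.50, stood beside 0.18 and 0.26 in the other Zfp genes. Without the 3 libraries that stood apart, the PIO medians were 0.17 in the members, 0.06 in the other Zfp genes, 0.12 in the Zkscan and Zscan genes and 0.03 in the Zbtb genes, and those for PIO+GM against GM were -0.00, 0.02, 0.10 and -0.01. The median GC was 40.0% in the members, 46.2% in the other Zfp genes, 48.7% in the Zkscan and Zscan genes and 49.8% in the Zbtb genes. Schwann cell, neuron and mesenchyme markers had mostly lower values with the drug at 6 h, and the other lists were mixed. The log2 fold change was negative for 7 of 7 Schwann cell markers in PIO against CTRL (median -0.75) and in PIO+GM against GM (-0.41), and for 8 of 8 neuron markers (-0.63 and -0.23), with 0 called. Of 7 mesenchyme markers, 5 were negative in each (-0.48 and -0.44) and 1 was called lower in each. In the same order, 6 and 9 of 10 macrophage markers were negative (-0.04 and -0.46) and 5 and 2 of 5 erythroid markers (-0.27 and 0.23). For HC markers it was 6 of 10 in each (-0.23 and -0.13), and for supporting cell markers 6 and 7 of 11 (-0.10 and -0.23). The summed level of the Schwann cell markers was 418 to 1653 CPM in PIO against 723 to 2106 CPM in CTRL, that of the neuron markers 60.9 to 318 against 191 to 266 CPM, and that of the mesenchyme markers 2271 to 4095 against 3201 to 4905 CPM. All 3 ranges overlapped.

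Markers of other cell types differed with the drug at 24 h too, where 0 were called. The summed level of the mesenchyme markers was 3690 to 4576 CPM in PIO against 4825 to 5780 CPM in CTRL, and 3568 to 4452 CPM in PIO+GM against 4455 to 7080 CPM in GM, without overlap in either, though 4 of 7 single log2 fold changes were negative in each. For the neuron markers 7 of 8 were negative in both comparisons, with medians of -0.30 and -0.41, and for the macrophage markers 4 of 10 and 9 of 10. For PIO against CTRL, 9 of 10 HC markers (median -0.34), 9 of 11 supporting cell markers (-0.10) and 6 of 7 Schwann cell markers (-0.40) were negative, and for PIO+GM against GM 6 of 10 (-0.42), 5 of 11 (0.04) and 4 of 7 (-0.10). For the erythroid markers 5 of 5 were positive in both, with medians of 0.63 and 0.40. At neither time was the part of these markers in the values of Zfp963, Zfp866, Chd3 or the other genes above tested.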

How the data were processed

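Per the labels and methods, the authors sequenced stranded total RNA libraries as single 76-base reads, mapped them to mm10 with STAR, and counted reads that start within any RefSeq exon with QuasR. The deposited counts are whole numbers per Entrez gene, with a gene length, and strand use is not given in the sources used here. CPM, RPKM and log2 values were computed from these counts. Symbols came from RefSeq, and GC content, finger and KRAB patterns from GENCODE transcripts (GRCm38), the longest 1 per gene. Of 24454 rows, 24374 had a symbol.

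Counts were fitted with edgeR 4.0.16 (R 4.3.3): TMM scaling, filterByExpr, 8 group means over 24 libraries, quasi-likelihood F-tests, Benjamini-Hochberg adjustment over 16317 genes, threshold 0.05. Log2 CPM used a prior count of 2. GC curves were lowess fits (fraction 0.3) over the 16065 genes that are no members and have a GC value, and a GC correction removed each library's curve. DESeq2 1.42.0 was an alternative. The fits were tested on simulated data. Members, lists and rules were chosen with earlier results of these data known. Named are, for each comparison, up to 4 called members in each direction by p, otherwise the smallest p in each direction, the 5 highest by RPKM, those beside the threshold, Zfp811, and members with a known role. Other members named were chosen after their values were seen.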

Additional observations from a re-analysis of the deposited data

Results flagged for a closer look

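Zfp950 was flagged because its libraries moved in opposite directions at the 2 times: in PIO all 3 libraries were above those of CTRL at 6 h (log2 fold change 0.42) and all 3 below at 24 h (-0.30). The values were 114, 126 and 109 CPM in PIO against 87.2, 74.3 and 98.9 CPM in CTRL at 6 h, and 161, 137 and 160 CPM against 198, 166 and 202 CPM at 24 h. The interaction of PIO with time did not call it or any other member.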

How the results depend on the processing

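The calls at 6 h changed with most settings, and the cause was not tested. Where no share of all genes stands beside a count, nothing is read from that count about the members. The number of members called for PIO against CTRL at 6 h was 2 and became 0 without a count filter or with only the 12 libraries of that time, 1 with the GC correction (also with the transcript of nearest length), 4 with the replicate block or DESeq2 (2.27% and 1.54% of all genes), 6 with the GC correction and the block together (5.17%), and 0 to 1 when 1 library was left out. For PIO+GM against GM at 6 h it was 2 and became 0 without a filter, with 12 libraries or with either GC correction. It was 5 with at least 10 counts in every library (2.58% of all genes), 17 with DESeq2 (5.28%), 18 with the replicate block (12.2%), and 0 to 52 when 1 library was left out, 52 without PIO+GM replicate 1 (24.4%). At 24 h, PIO against CTRL gave 1 member, Zfp866, with the block, DESeq2 or the GC correction (1 also with the transcript of nearest length) and 3 with GC correction and block, where 3.47% of all genes were called, and PIO+GM against GM gave 1, Zfp866, with GC correction and block (1.29%). The other counts stayed within 1.5 times the reported ones, 33 to 52 members for time. The members' medians for the 4 pioglitazone comparisons stayed positive, apart from -0.002 for PIO+GM against GM at 6 h without the 3 libraries. Those near 0, for GM at 24 h and for time, changed sign in 3 and 6 settings. With the GC correction they were 0.22 and 0.18 for the 2 drug comparisons at 6 h and 0.13 and 0.08 at 24 h. Zfp811 and Zfp963 kept a positive log2 fold change in PIO against CTRL at 6 h in every setting, from 1.13 to 1.40 and from 0.48 to 0.75.

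The labels give a replicate number without saying what it stands for, and the reported fit did not use it as a block. Libraries of 1 number deviated together with a correlation over 0.1 in 9 of 18 pairs at 6 h and 15 of 18 at 24 h. The mean correlation was 0.11 and 0.38 at 6 and 24 h, against -0.05 and -0.18 for pairs of unlike number. Libraries of 1 number thus went together at 24 h, where the fit without the block leaves this out. The common coefficient of variation was 0.225 without and 0.177 with the block. The replicate block could not be applied to the time comparison, since its blocks lie within a time. The 3 members called by the GC correction with block in PIO at 24 h were Zfp800, Zfp866 and Zfp963, 3.9% of the 77, near the share of all genes. A prior count of 0.5 did not move the members' level beyond the spread of libraries. The added settings (transcript of nearest length, the 3 libraries, shared windows, Chd3) were chosen after seeing the data. Depth limits Zfp819, Zfp831, Zfp957, Zfp872, Zfp972, Zfp980, Zfp981 and Zfp987, with under 25 counts in every library.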
